A study of Mus musculus with 6 samples.

Results

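Complement and coagulation genes were followed through 6 tumour samples from mice on 2 diets. The set held 42 genes, listed by symbol, out of the 34745 genes of the deposited expression table. They comprise complement components with their regulators and a receptor, clotting factors with their inhibitors, and the plasminogen activators with their receptor and substrate. All 42 symbols were found. Of these genes, 29 had enough counts to be tested for a difference between the diets and 13 did not.

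The HCD group was 3 tumour samples from mice on a high cholesterol diet. The ND group was 3 tumour samples from mice on a normal diet. Mice of both groups were C57BL/6J, an inbred strain, and carried tumours grown under the skin of the right flank from injected cells labelled B16F10, a mouse melanoma line of the same strain background. No genetic change, drug, age, sex or feeding time is given for either group. Bulk RNA sequencing (TruSeq RNA kit) gave between 20351637 and 26228074 counted reads per library. The labels do not say that the 3 samples of a diet came from separate tumours or animals. The p-values below thus measure the spread between these samples, which need not be a spread between animals or tumours. Tumour tissue was sequenced in bulk, so fewer cells of a type and less RNA per cell cannot be told apart in any value below.

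The tissue label was checked against marker genes. Of 7 pigment cell markers, Tyr, Dct and Mlana had 0 counts in all 6 libraries and Tyrp1 had 1 count in all. Mitf, Pmel and Sox10, the other 3, were low, with 800, 89 and 15 counts over the 6 libraries and averages of 0.603, 0.316 and 0.0447 FPKM. Mitf and Pmel had counts in every library. Some hepatocyte genes were high in every library, and 6 of 12 hepatocyte markers averaged at least 1 FPKM. Alb averaged 1407 FPKM (fragments per kilobase of transcript, scaled to library depth), Afp 148 FPKM and the liver transcription factor Hnf4a 20.5 FPKM. Several other liver secretory genes were near 0, with Serpina1a at 0.0523 FPKM and Ahsg at 0.363 FPKM. The markers thus go against the melanoma label, and the tumours are called here by their diet.

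Complement is a chain of blood proteins that marks and lyses target cells. It starts through antibody (the classical route), through sugar-binding lectins or by itself (the alternative route), all of which meet at C3. Clotting is another chain of proteases, started by tissue factor, in which thrombin turns fibrinogen into fibrin, and plasmin later dissolves that fibrin. Most plasma proteins of both systems are made by hepatocytes, while macrophages, fibroblasts and endothelial cells make or display others.

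The genes differed widely in level. Averaged over the 6 libraries, 2 genes were above 100 FPKM, 6 lay between 10 and 100 FPKM, 12 between 1 and 10 FPKM and 22 below 1 FPKM. The highest were Plat at 158 FPKM, which ranked 194 of all genes, and C3 at 153 FPKM, which ranked 202. Next came Serping1, C4b, Fgb, Cfp, Plaur and Pros1. C8a, C8b, Mbl1, Mbl2 and F13b had 0 counts in all 6 libraries, which allows up to 0.0228 CPM (counts scaled to library depth) over the 6 libraries together, where 3 counts is taken as the limit and counting error alone is covered.

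**Figure D1:**
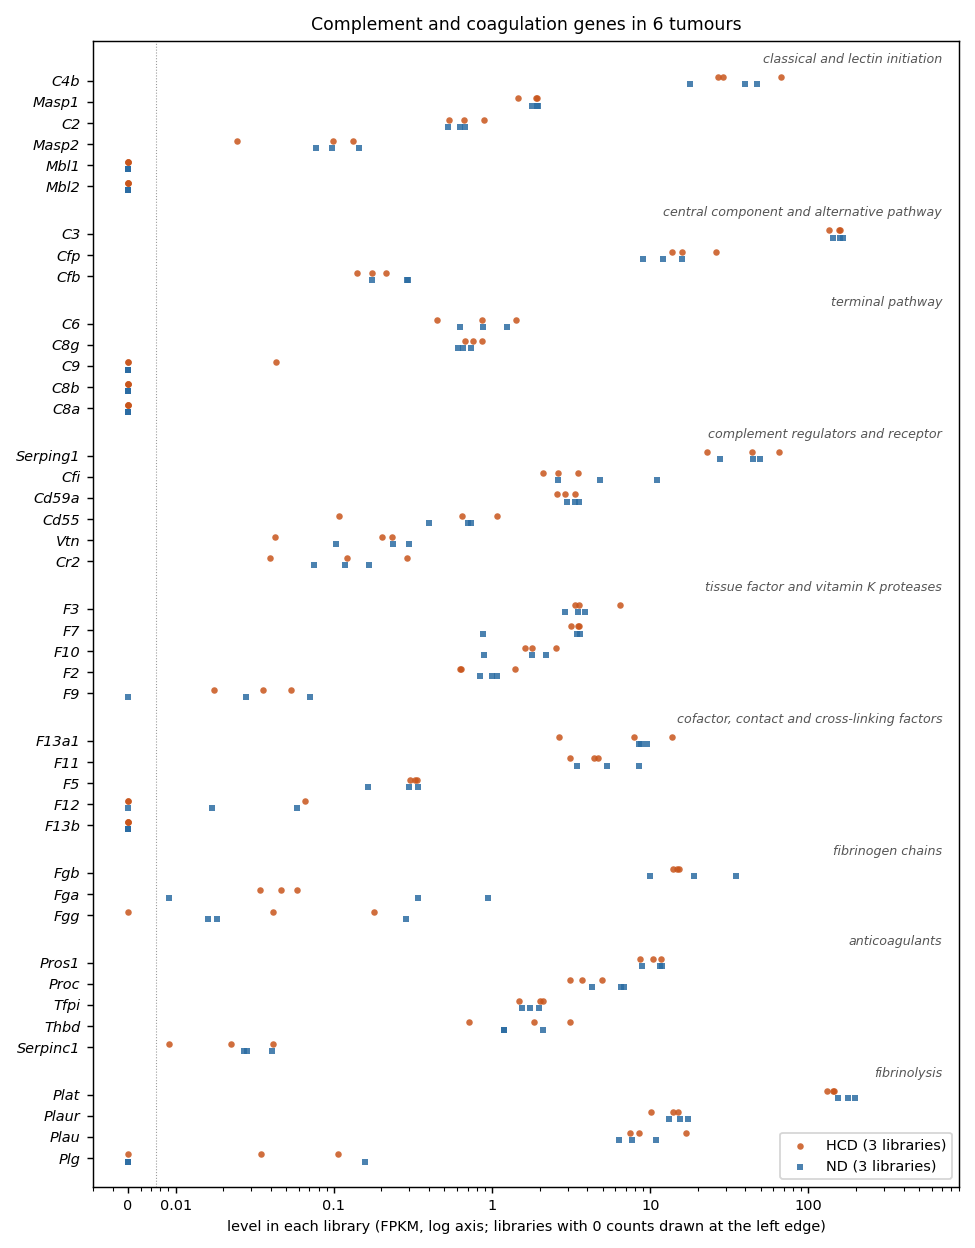
Level of each of the 42 genes in each library in FPKM on a log axis, ordered by role, with HCD libraries as circles drawn above the squares of the ND libraries. Libraries with 0 counts are drawn at the left edge, and Plat and C3 stand furthest to the right, above 100 FPKM.

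HCD was compared with ND to find which of these genes differ with the diet. None passed the test. By edgeR's quasi-likelihood test with Benjamini-Hochberg adjustment over 15539 genes, 0 of the 29 genes reached an adjusted p under 0.05, against 0% of all genes tested, and their adjusted p ran between 0.839 and 0.991. At an unadjusted p under 0.05 there was 1 of 29, Plat, which was lower in HCD, against 5.3% of all genes tested (823 genes). By DESeq2's Wald test 0 of the 29 were called and 4 had an unadjusted p under 0.05, against 4.88% of all genes (759 genes). All 3 HCD libraries lay below all 3 ND libraries for 1 of the 29 genes, again Plat, against 6.36% of all genes tested, and above them for 0 genes, against 4.75%. Log2 fold changes were positive for 13 genes and negative for 16, with a median of -0.04, beside a median of 0.01 over all genes tested. Leaving out HCD 3 turned the median of these genes to 0.10 and leaving out ND 3 turned it to 0.02.

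**Figure D2:**
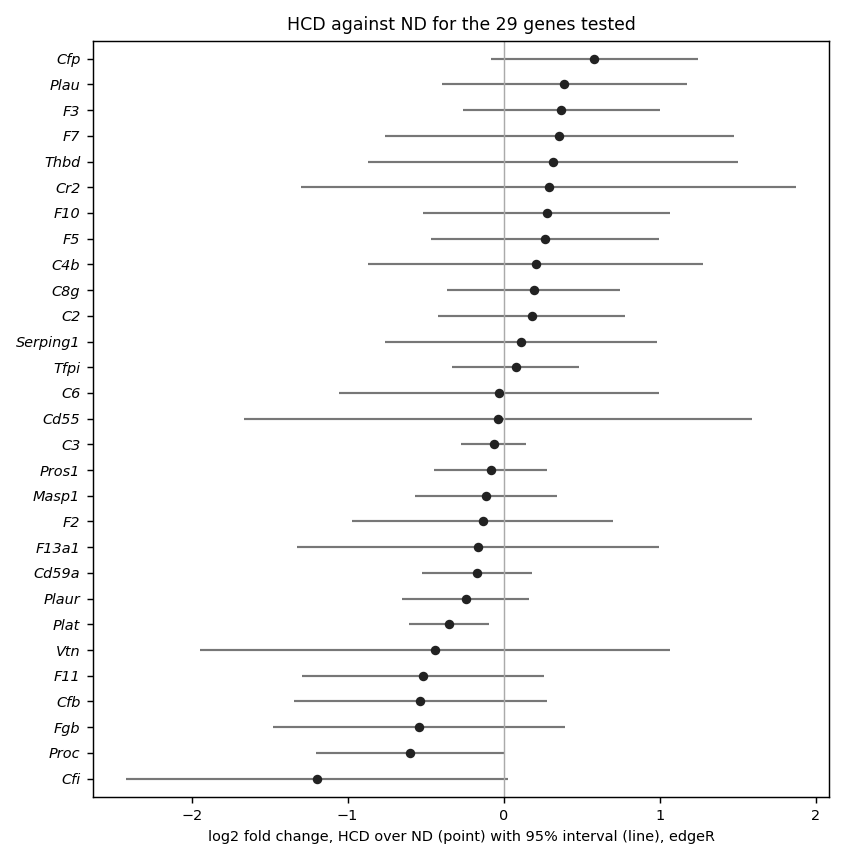
Log2 fold change of HCD over ND (point) with its 95% interval (line) for the 29 genes tested by edgeR. The interval of Plat, -0.60 to -0.09, is the one that does not cross 0, and the points run between -1.20 for Cfi and 0.58 for Cfp.

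The genes of the classical and lectin routes were led by C4b, the cleaved protein whose fragment C4b joins the C3-cutting enzyme. C4b (ENSMUSG00000073418, GRCm38 chromosome 17, 34728380 to 34743882, minus strand) had 26.7, 66.9 and 28.8 FPKM in HCD 1, 2 and 3, against 17.7, 39.9 and 47.6 FPKM in ND 1, 2 and 3. The highest library was HCD 2 and the lowest ND 1, and the groups overlapped. Its log2 fold change was 0.21 ± 0.45 (SE, edgeR adjusted p = 0.925), and it turned to -0.33 without HCD 2 and -0.11 without ND 1. Of its 50-base stretches of exon, 34.6% also occur in C4a, the neighbouring copy, so reads may have been split between them. The FPKM of C4b was 44.0 to 66.3 times that of C4a in the 6 libraries.

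Masp1, a protease that lectins activate, had 1.93, 1.46 and 1.89 FPKM in HCD, against 1.92, 1.801 and 1.94 FPKM in ND. Between the diets the log2 fold change was -0.11 ± 0.19 (SE, edgeR adjusted p = 0.909), with the groups overlapping, and turned to 0.02 without HCD 2. C2, the protease partner of C4b, lay between 0.531 and 0.894 FPKM in HCD and between 0.527 and 0.679 FPKM in ND. Masp2, the protease that cuts C4 and C2, was too low to test, and 54.9% of its exon bases lie under exons of Tardbp on the other strand. The mannose-binding lectins Mbl1 and Mbl2, which recognise sugars on microbes, were those with 0 counts.

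C3, the component on which all routes meet, was the steadiest of the 29 genes. C3 (ENSMUSG00000024164, chromosome 17, 57203970 to 57228136, minus strand) had 155.9, 159.1 and 135.4 FPKM in HCD, against 157.7, 142.2 and 165.9 FPKM in ND. The lowest library was HCD 3, and the groups overlapped. The means were 150.1 ± 12.8 FPKM in HCD and 155.3 ± 12.05 FPKM in ND (SD, n = 3 each). The fitted log2 fold change was -0.06 ± 0.09 (SE, edgeR adjusted p = 0.893), with a 95% interval of -0.27 to 0.14, and lay between -0.13 without ND 2 and -0.01 without HCD 3. The SD of log2 CPM within a diet was 0.11 for C3, the lowest among the 29.

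The alternative route's partners of C3 were uneven in level. Cfp, properdin, which stabilises the C3-cutting enzyme, had 15.99, 26.2 and 13.8 FPKM in HCD, against 9.06, 15.98 and 12.02 FPKM in ND. HCD 2 was the highest library and ND 1 the lowest. For Cfp the log2 fold change was 0.58 ± 0.28 (SE, 95% interval -0.08 to 1.24, edgeR adjusted p = 0.839). The size was 0.27 without HCD 2. Cfb, the protease of that enzyme, was low, with 0.174, 0.214 and 0.139 FPKM in HCD, against 0.292, 0.175 and 0.293 FPKM in ND. C3 stood at 541 to 971 times the FPKM of Cfb. An overlapping protein-coding gene model, Gm20547, covers 79.5% of the exon bases of Cfb and 42.8% of those of C2 on the same strand and itself had 0 counts, so the levels of Cfb and C2 are uncertain.

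The 5 terminal components of the set, which take part in the pore of complement, were all below 1 FPKM on average. Hc, the gene of C5, which starts the pore and is on the wider list described below, averaged 2.86 FPKM. C6 lay between 0.448 and 1.41 FPKM in HCD and between 0.629 and 1.24 FPKM in ND. C8g, the small chain of C8, lay between 0.671 and 0.870 FPKM in HCD and between 0.605 and 0.739 FPKM in ND. The groups overlapped for both. C8a and C8b, the pore-forming partners of C8g, had 0 counts, and C9, the repeated unit of the pore, had 3 counts in HCD 3 and 0 in the other 5 libraries.

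The complement regulators included Cd55 and Cr2, the 2 genes of the 29 with the widest spread within a diet. Serping1, the C1 inhibitor, which also blocks contact clotting, had 44.2, 65.5 and 23.0 FPKM in HCD, against 27.6, 44.5 and 49.3 FPKM in ND. HCD held both the highest and the lowest library. Its log2 fold change was 0.11 ± 0.37 (SE, edgeR adjusted p = 0.953), and it turned to -0.28 without HCD 2 and -0.09 without ND 1.

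Cfi, factor I, the protease that destroys C3b and C4b, had the most negative fold change of the 29. Cfi (ENSMUSG00000058952, chromosome 3, 129835884 to 129875332, plus strand) had 3.49, 2.10 and 2.60 FPKM in HCD, against 11.1, 2.60 and 4.79 FPKM in ND. ND 1 stood high, and ND 2 lay within the HCD range. On the log2 scale the fold change was -1.20 ± 0.52 (SE, 95% interval -2.42 to 0.03, edgeR unadjusted p = 0.054, adjusted p = 0.839). Without ND 1 it was -0.44.

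Cd59a, which stops the pore on the body's own cells, had 2.90, 2.57 and 3.33 FPKM in HCD, against 2.97, 3.54 and 3.33 FPKM in ND. Between the diets the log2 fold change was -0.17 ± 0.15 (SE, edgeR adjusted p = 0.853), with the groups overlapping, and lay between -0.29 without HCD 3 and -0.08 without HCD 2. Cd55, which speeds the decay of the C3-cutting enzyme, had 0.647, 1.08 and 0.107 FPKM in HCD, against 0.400, 0.741 and 0.709 FPKM in ND. It was low in HCD 3, and its SD of log2 CPM within a diet, 1.18, was the highest of the 29. Copies in Cd55b hold 7.998% of the 50-base exon stretches of Cd55, and copies in Cd59b hold 3.87% of those of Cd59a. Vtn, vitronectin, which binds the pore proteins, and Cr2, the receptor for C3 fragments on B cells and follicular dendritic cells, were at most 0.300 FPKM in any library. Cr2 had 0.292, 0.121 and 0.0393 FPKM in HCD, against 0.168, 0.118 and 0.0752 FPKM in ND. The summed level of 5 B cell markers was 15.9, 9.76 and 1.75 CPM in HCD, against 1.12, 3.44 and 3.59 CPM in ND, and none of the 5 was at 0 in all libraries. ND 1 was the lowest library for these markers, while for Cr2 only HCD 1 lay above ND 1. The part of B cells in the values of Cr2 was not tested.

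Clotting starts with tissue factor, F3, the membrane receptor of factor VII. F3 had 3.33, 6.46 and 3.57 FPKM in HCD, against 2.89, 3.84 and 3.50 FPKM in ND. The highest library was HCD 2, and the groups overlapped. The fitted log2 fold change was 0.37 ± 0.27 (SE, edgeR adjusted p = 0.842), and 0.02 without HCD 2.

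F7 and F10, proteases that lie 1498 bases apart on chromosome 8, follow tissue factor in the chain. F7 (ENSMUSG00000031443, 13026034 to 13035809) had 3.54, 3.50 and 3.16 FPKM in HCD, against 0.870, 3.61 and 3.44 FPKM in ND. ND 1 was low and the other 5 libraries lay close together. The log2 fold change of F7 was 0.36 ± 0.47 (SE, edgeR adjusted p = 0.890), and it turned to -0.05 without ND 1. F10 (ENSMUSG00000031444, 13037308 to 13056676) had 1.79, 2.55 and 1.61 FPKM in HCD, against 0.894, 1.802 and 2.19 FPKM in ND. ND 1 was again the lowest. For F10 the log2 fold change was 0.28 ± 0.33 (SE, edgeR adjusted p = 0.883), and -0.01 without ND 1. Proz, an anticoagulant cofactor 4237 bases beyond F10, averaged 0.248 FPKM.

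F2, prothrombin, the precursor of thrombin, had 0.641, 0.630 and 1.39 FPKM in HCD, against 0.840, 1.08 and 1.00 FPKM in ND. HCD 3 was the highest library and the groups overlapped. F5, the cofactor of factor X, lay between 0.304 and 0.336 FPKM in HCD and between 0.165 and 0.339 FPKM in ND. F9, the haemophilia B protease, was at most 0.0709 FPKM and was not tested. F12, which starts contact clotting, was also untested and had counts in 3 of the 6 libraries.

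F11, the contact-route protease, had 4.40, 4.67 and 3.13 FPKM in HCD, against 5.32, 3.47 and 8.47 FPKM in ND. ND 3 was the highest library. Its log2 fold change was -0.52 ± 0.33 (SE, edgeR adjusted p = 0.839), -0.78 without ND 2 and -0.14 without ND 3. Its neighbour listed as Klkb1, plasma kallikrein, 7639 bases away, had 5 counts over the 6 libraries. The GENCODE M21 annotation names that gene ID Gm45753, a model whose exons overlap those of Cyp4v3 and Klkb1 on the same strand. The level of plasma kallikrein is therefore uncertain. F13a1, the chain of factor XIII that cross-links fibrin and is made by macrophages and megakaryocytes, had 7.91, 13.8 and 2.65 FPKM in HCD, against 8.54, 9.55 and 8.79 FPKM in ND. HCD held both extremes, and the ND libraries lay together. The log2 fold change of F13a1 was -0.16 ± 0.49 (SE, edgeR adjusted p = 0.946), and it turned to 0.25 without HCD 3. F13b, the carrier chain made by the liver, had 0 counts.

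The 3 fibrinogen genes lie side by side on chromosome 3, in the order Fgg, Fga and Fgb, with gaps of 11026 and 6513 bases, and encode the chains of 1 protein. Fgb alone was abundant. The bases upstream of each start are shown for reference, and their part in the levels of these genes was not tested. They are RefSeq sequences on build GRCm38.p6, printed 5′ to 3′ along the gene's own strand, with matches to the motifs below in capitals. The Fgg stretch is chr3:83007474-83007723 (plus strand), the Fga stretch chr3:83025903-83026152 (plus strand) and the Fgb stretch chr3:83049864-83050113 (minus strand).
Fgg: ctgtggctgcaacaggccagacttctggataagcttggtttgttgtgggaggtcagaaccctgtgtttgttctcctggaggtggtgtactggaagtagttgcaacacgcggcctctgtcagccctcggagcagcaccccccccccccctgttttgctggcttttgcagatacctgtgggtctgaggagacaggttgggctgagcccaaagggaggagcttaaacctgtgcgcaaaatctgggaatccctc
Fga: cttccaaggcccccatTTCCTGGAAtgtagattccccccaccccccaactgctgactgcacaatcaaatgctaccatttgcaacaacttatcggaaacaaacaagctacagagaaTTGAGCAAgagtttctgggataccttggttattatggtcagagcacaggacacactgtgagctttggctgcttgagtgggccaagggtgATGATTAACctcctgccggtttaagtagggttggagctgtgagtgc
Fgb: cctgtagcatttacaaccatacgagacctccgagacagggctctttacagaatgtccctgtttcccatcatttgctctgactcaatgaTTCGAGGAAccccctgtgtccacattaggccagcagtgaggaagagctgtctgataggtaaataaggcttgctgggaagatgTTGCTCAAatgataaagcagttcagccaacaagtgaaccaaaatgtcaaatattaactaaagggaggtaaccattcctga

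Matches to 7 motifs were counted on both strands in windows of 250 bases before to 50 after a start. RefSeq and GENCODE M21 place the start of Fga differently, and the last 77 bases of the printed Fga stretch lie inside the GENCODE gene. Positions are counted from the RefSeq start. The Fga window held GTTAATNAT (HNF1, a liver factor) at -46 to -38 on the opposite strand, within those bases, a motif found in 0.801% of all 32851 windows. It also held TTGCNNAA (C/EBP), found in 10.8% of windows, at -135 to -128 on the opposite strand, and TTCNNNGAA (STAT), found in 8.30% of windows, at -234 to -226. The Fgb window held TTGCNNAA at -80 to -73 and TTCNNNGAA at -162 to -154. The Fgg window held no match. None of the 3 windows held TATAAA (13.6% of windows), CAAAGTCCA (HNF4, 0.475%), GGGNNTTTC (NF-kB, 4.36%) or GAAANNGAA (interferon response, 8.56%), and the matches printed do not overlap each other. Windows were found for 31 of the 42 genes. Over their 34 windows TTGCNNAA was present in 23.5%, TTCNNNGAA in 20.6% and GTTAATNAT in 5.88%. In the same windows TATAAA was present in 11.8%, GAAANNGAA in 5.88%, and CAAAGTCCA and GGGNNTTTC in 0%. A match is a run of letters, not a shown binding site. Fga, far lower in level than Fgb, held both motifs of the Fgb window and GTTAATNAT as well.

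Fgb (ENSMUSG00000033831, 83040141 to 83049863, minus strand) had 15.2, 14.9 and 14.0 FPKM in HCD, against 19.0, 9.97 and 34.7 FPKM in ND. The HCD libraries lay together inside the ND range, which was wide. The log2 fold change of Fgb was -0.54 ± 0.39 (SE, edgeR adjusted p = 0.842), -0.88 without ND 2 and -0.0025 without ND 3. Fga (ENSMUSG00000028001, 83026076 to 83033627, plus strand) was too low to test, with 4, 5 and 3 counts in HCD, against 33, 1 and 82 counts in ND. ND 1 and ND 3 held nearly all of its counts, and ND 2 the fewest. In those 2 libraries the FPKM of Fgb was 55.4 and 36.7 times that of Fga. Fitted without the filter on low counts, Fga had a log2 fold change of -3.19 ± 1.12 (SE, edgeR unadjusted p = 0.0194, adjusted p = 0.823). Fgg (ENSMUSG00000033860, 83007724 to 83015049, plus strand) averaged 0.0901 FPKM over the 6 libraries, with its highest values of 0.180 FPKM in HCD 3 and 0.285 FPKM in ND 3.

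Among the anticoagulants, Proc, protein C, which destroys factors V and VIII once thrombin activates it, came nearest to a difference. Proc (ENSMUSG00000024386) had 4.93, 3.13 and 3.69 FPKM in HCD, against 6.79, 4.26 and 6.53 FPKM in ND. ND 2 lay below HCD 1, so the groups overlapped. Between the diets the log2 fold change was -0.60 ± 0.26 (SE, 95% interval -1.20 to 0.01, edgeR unadjusted p = 0.0525, adjusted p = 0.839). Pros1, protein S, the cofactor of protein C, had 10.5, 11.7 and 8.66 FPKM in HCD, against 11.9, 8.84 and 11.5 FPKM in ND. For Pros1 the log2 fold change was -0.08 ± 0.15 (SE, edgeR adjusted p = 0.913), and 0.01 without HCD 3 or without ND 1.

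Thbd, thrombomodulin, the endothelial receptor through which thrombin activates protein C, had 1.83, 3.13 and 0.719 FPKM in HCD, against 1.198, 2.10 and 1.198 FPKM in ND. HCD held the highest and the lowest library. The fitted log2 fold change was 0.32 ± 0.50 (SE, edgeR adjusted p = 0.903), and it turned to -0.24 without HCD 2. Tfpi, which blocks tissue factor with factor VII, had 1.48, 2.01 and 2.10 FPKM in HCD, against 1.99, 1.55 and 1.73 FPKM in ND. The log2 fold change of Tfpi was 0.08 ± 0.17 (SE, edgeR adjusted p = 0.926), -0.04 without HCD 3 and -0.01 without ND 2. Serpinc1, antithrombin, the main plasma inhibitor of thrombin, was at most 0.0411 FPKM and was not tested. Exons of Zbtb37 on the other strand cover 34.4% of its exon bases.

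**Figure D3:**
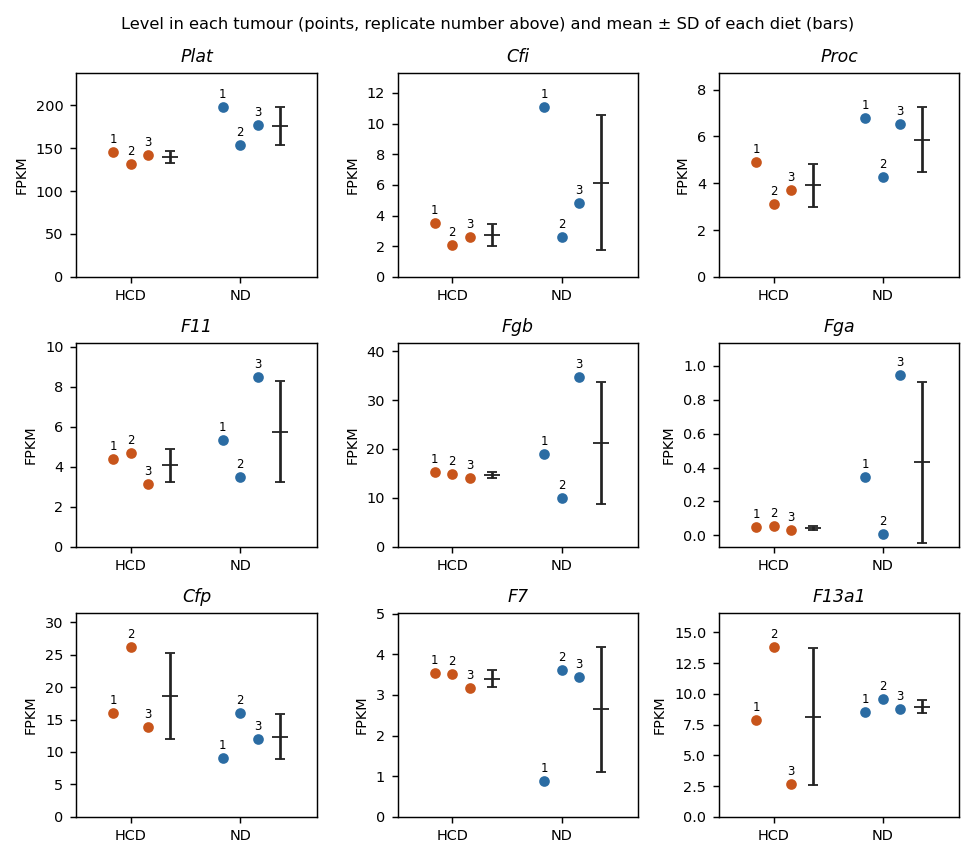
FPKM in each library (points, with the replicate number above) and the mean ± SD of each diet (bars, n = 3) for 9 of the genes, HCD left of ND. The 3 HCD points of Plat lie below the 3 ND points, while the groups overlap in the other panels, where ND 1 stands apart for Cfi at 11.1 FPKM and for F7 at 0.870 FPKM.

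Plat, tissue plasminogen activator, which cuts plasminogen to plasmin on fibrin, was the most abundant gene of the set and the one with separate groups. Plat (ENSMUSG00000031538, chromosome 8, 22757727 to 22782844, plus strand) had 145.5, 131.4 and 141.9 FPKM in HCD, against 197.4, 153.8 and 176.6 FPKM in ND. Every HCD library lay below every ND library, with HCD 1 and ND 2 nearest to each other. The means were 139.6 ± 7.32 FPKM in HCD and 175.9 ± 21.8 FPKM in ND (SD, n = 3 each). The log2 fold change was -0.35 ± 0.11 (SE, 95% interval -0.60 to -0.09), with an edgeR unadjusted p = 0.0150 and an adjusted p = 0.839, so the difference did not pass over all genes. Its size lay between -0.44 and -0.24 over the 16 alternatives, and the lowest adjusted p among them was 0.559 (edgeR without ND 2).

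Plau, urokinase, the other activator, had 7.49, 16.8 and 8.55 FPKM in HCD, against 6.37, 10.8 and 7.68 FPKM in ND. HCD 2 was the highest library. For Plau the log2 fold change was 0.39 ± 0.33 (SE, edgeR adjusted p = 0.853), and -0.04 without HCD 2. Plaur, the receptor of urokinase, had 10.1, 14.9 and 13.9 FPKM in HCD, against 15.5, 13.1 and 17.3 FPKM in ND. For Plaur the log2 fold change was -0.24 ± 0.17 (SE, edgeR adjusted p = 0.842), with the groups overlapping, -0.09 without HCD 1 and -0.15 without ND 3. The FPKM of Plat was 7.81 to 31.0 times that of Plau in the 6 libraries. Plg, plasminogen, the substrate of both activators, had 17 counts over all libraries.

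The libraries of a diet differed more for these genes than for most. The median SD of log2 CPM within a diet was 0.49 for the 29 genes, against 0.17 over all genes tested. Restricted to genes that averaged 10 CPM or more, it was 0.43 for 15 of the 29 and 0.12 for all 9735 such genes. HCD 2 was the highest library for 12 of the 29 genes, against 23.0% of all genes tested. HCD 3 was the lowest for 10 of the 29, against 14.6% of all genes tested, and ND 3 was the lowest for 0, against 12.6%. HCD 2 was highest for C4b, Cfp, Serping1, F3, F10, F13a1, Thbd and Plau among the genes given in full.

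Marker lists moved across the same libraries. The skeletal muscle list moved most, with its highest sums in ND 2 and HCD 1, and its values are given with Cfd below. Of 8 macrophage and monocyte markers, all had counts in every library, and their summed level was 619.5, 1021 and 455.4 CPM in HCD, against 339.9, 654.7 and 581.1 CPM in ND. It was highest in HCD 2 and lowest in ND 1. Of 7 endothelial markers, all were found in every library and summed to 197.2, 366.6 and 176.1 CPM in HCD, against 158.8, 179.3 and 201.8 CPM in ND. The 5 mast cell markers summed to 60.9, 182.0 and 76.6 CPM in HCD, against 26.8, 85.3 and 79.3 CPM in ND. The 7 fibroblast markers summed to 2985, 3664 and 2520 CPM in HCD, against 3984, 2730 and 3074 CPM in ND. Dcn alone averaged 1675 CPM and weighs most in that sum. Scored as the mean over genes of log2 CPM minus gene mean, the list was highest in HCD 2 (0.59). By that score ND 1 was at 0.28. For the 7 neutrophil markers, of which 6 had counts in every library, the sums were 64.9, 77.8 and 63.6 CPM in HCD, against 135.1, 78.1 and 146.0 CPM in ND. ND 1 and ND 3 were the 2 highest libraries for neutrophil markers. By FPKM they were also the 2 highest for Plat, Cfi, Cfb, Fga, Fgb, F11, Proc and Plaur. These genes are named because they share this order. The share of all genes with the same order was not counted, so nothing is drawn from the match. The 12 hepatocyte markers, which include Fgg of the set itself, were summed too. Their sums were 4982, 3999.8 and 5895 CPM in HCD, against 5678, 4556 and 4557 CPM in ND. Alb alone averaged 3611 CPM, so these sums mostly follow Alb. The part of any of these cell types in the values of the complement and coagulation genes was not tested.

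**Figure D4:**
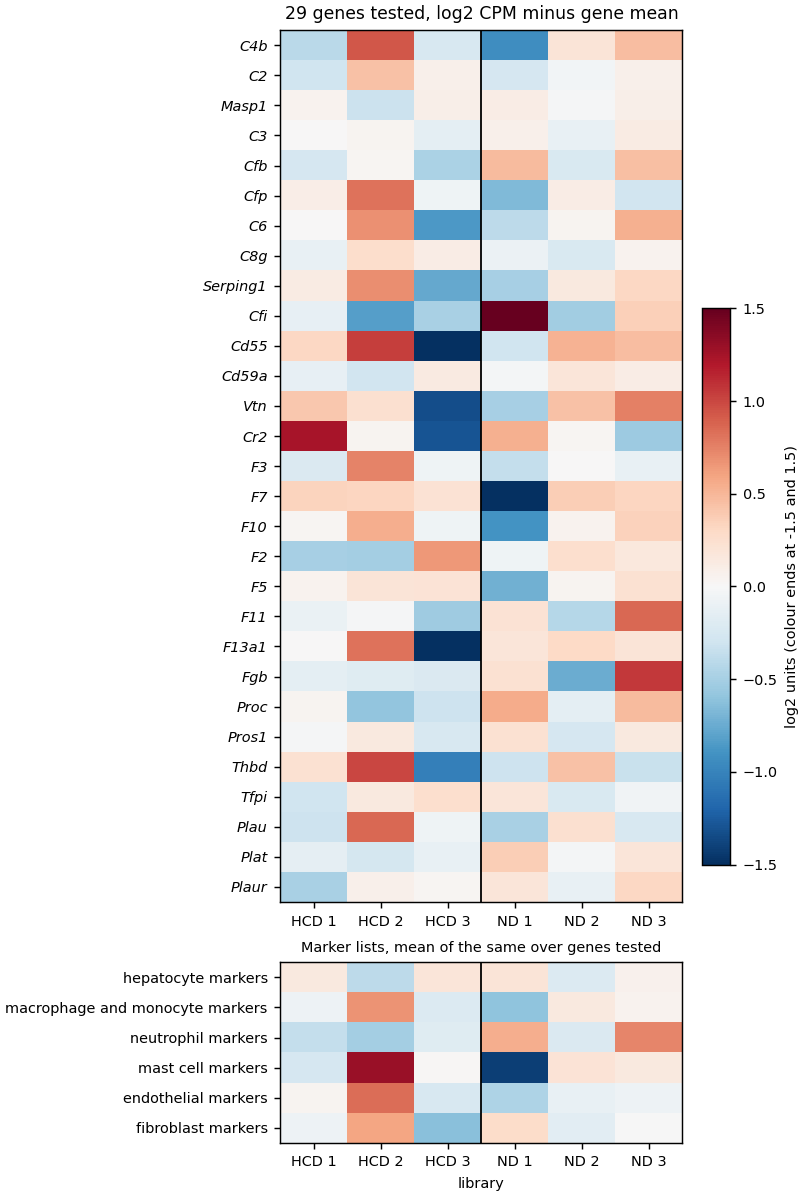
Log2 CPM of the 29 genes tested minus each gene's mean over the 6 libraries, with the mean of the same for 6 marker lists underneath, HCD left of ND. HCD 2 is red for C4b, Cfp, Serping1, Thbd and Plau and for the macrophage, mast cell and endothelial lists, and Cd55 and F13a1 are blue in HCD 3.

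A wider list of 61 other genes of both systems was read from the same fit. Of these, 48 were tested, 0 were called by edgeR's adjusted p, 27 had positive and 21 negative log2 fold changes, and the median was 0.05. At an unadjusted p under 0.05 there were 4 of 48, all lower in HCD, against 5.3% of all genes tested, of which 541 were lower and 282 higher. The HCD libraries lay wholly below the ND libraries for 5 (Cr1l, C5ar1, C5ar2, Lman1 and Mcfd2) and wholly above for 0, beside the 6.36% and 4.75% of all genes. C1qa, a chain of the antibody-binding C1q and made by macrophages, was the highest of the initiators, with 133.6, 209.9 and 106.4 FPKM in HCD, against 58.2, 130.8 and 116.7 FPKM in ND. Its log2 fold change was 0.55 ± 0.34 (SE, edgeR adjusted p = 0.839), 0.24 without HCD 2 and 0.27 without ND 1. Clu, clusterin, a fluid-phase regulator of the pore, had 77.7, 65.1 and 62.6 FPKM in HCD, against 93.2, 75.5 and 80.1 FPKM in ND (log2 fold change -0.29 ± 0.11 SE, edgeR unadjusted p = 0.0374, adjusted p = 0.839). HCD 1 lay above ND 2, so the groups overlapped, and the fold change was -0.19 without ND 1.

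C5ar1, a receptor for the C5a fragment, had 0.705, 1.57 and 0.971 FPKM in HCD, against 1.90, 2.27 and 1.77 FPKM in ND, without overlap (log2 fold change -0.88 ± 0.30 SE, edgeR unadjusted p = 0.0206, adjusted p = 0.839). C5ar2, the other receptor for C5a, had 4, 3 and 1 counts in HCD, against 41, 41 and 43 counts in ND, with an edgeR unadjusted p = 7.24e-05 and adjusted p = 0.839. DESeq2's Wald test gave C5ar2 an adjusted p of 0.00109, and the other alternatives gave adjusted p between 0.0939 and 1.00. A2m, a broad protease inhibitor, had 2.04, 2.33 and 2.00 FPKM in HCD, against 7.39, 1.48 and 6.74 FPKM in ND. It was high in ND 1 and ND 3 (log2 fold change -1.31 ± 0.53 SE, edgeR unadjusted p = 0.0436, adjusted p = 0.839), and without ND 2 its edgeR adjusted p was 0.0399.

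For the other roles, the gene with the highest level is given. Cfd, the protease that activates factor B, had 9.10, 11.1 and 0.777 FPKM in HCD, against 1.52, 8.34 and 0.735 FPKM in ND (log2 fold change 0.96 ± 1.07 SE, edgeR adjusted p = 0.874). HCD 3, ND 1 and ND 3 were low and the other 3 libraries high, and the fold change lay between 0.46 without HCD 2 and 2.59 without ND 2. The 4 adipocyte markers, none at 0 in all libraries, summed to 3.52, 5.17 and 0.828 CPM in HCD, against 1.03, 3.90 and 0.874 CPM in ND. The 5 skeletal muscle markers, with counts in every library, summed to 1486, 137.4 and 10.1 CPM in HCD, against 7.77, 1565 and 17.7 CPM in ND. Both sums were higher in the 3 libraries where Cfd was high, and the part of these cells in its values was not tested. Itgb2, the shared chain of the complement receptors CR3 and CR4, had 18.8, 33.3 and 15.6 FPKM in HCD, against 7.90, 21.5 and 14.6 FPKM in ND (log2 fold change 0.61 ± 0.39 SE, edgeR adjusted p = 0.839), and its fold change lay between 0.23 without HCD 2 and 0.99 without ND 2. Lman1, which carries factors V and VIII out of the endoplasmic reticulum, had 49.98, 46.04 and 48.8 FPKM in HCD, against 56.5, 51.1 and 51.0 FPKM in ND (log2 fold change -0.14 ± 0.07 SE, edgeR adjusted p = 0.839). The gap between its groups was small beside the spread of ND, and the fold change was -0.08 without ND 1. Gas6, a relative of protein S, had 35.99, 47.8 and 17.7 FPKM in HCD, against 17.4, 33.4 and 28.8 FPKM in ND (log2 fold change 0.33 ± 0.37 SE, edgeR adjusted p = 0.873), and its fold change lay between 0.0092 without HCD 2 and 0.63 without HCD 3. S100a10, the annexin partner that binds plasminogen at the cell surface, had 243.2, 253.3 and 272.1 FPKM in HCD, against 237.9, 255.2 and 257.2 FPKM in ND (log2 fold change 0.02 ± 0.07 SE, edgeR adjusted p = 0.949).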

How the data were processed

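Counts per gene and FPKM in 6 tumour libraries were deposited by the authors in 1 table. Per the submitters' processing notes CASAVA 1.8, TopHat2 2.0.9, HTSeq, edgeR and build mm10 were used. How strand, annotation and reads with several matches were handled is not given in the sources used here. Per the file headers, the deposited values beside the counts are FPKM. They were checked to equal counts scaled by library total and by a gene length that varied at most 1.001-fold between libraries over 17690 genes. FPKM served for levels, since only it is per length, and counts for tests.

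Counts were tested with edgeR 4.0.16 in R 4.3.3 (quasi-likelihood F-test, TMM factors 0.979 to 1.02, diet as the only term, all 6 libraries). Genes kept had, by filterByExpr, a minimum count of 10 and a minimum total of 15. P-values were adjusted by Benjamini-Hochberg over the 15539 genes tested, with a threshold of 0.05. Fold changes use a prior count of 0.125. Alternatives were DESeq2 size factors, upper quartile factors, no filter, at least 1 CPM in all 3 libraries of a diet, DESeq2 1.42.0, limma-voom (limma 3.58.1), adjusted deviances, limma on log2(FPKM + 1) and log2(FPKM + 0.1), the replicate number as a block, and each library left out. The steps were also run on counts simulated from the spread of these data, and no result of that run is used here.

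Genes with a mean of at least 1 FPKM, an unadjusted p under 0.05 or non-overlapping groups were given in full. Of the wider list, those with an unadjusted p under 0.05 and the most abundant gene of each role were named. The genes are a list of symbols and no measured value enters the rule, but the genes, lists and motifs were chosen with earlier results of these data known. Coordinates and exons are from GENCODE M21 (GRCm38). The 6 platelet markers, not used beside any gene, summed to between 30.1 and 38.1 CPM in HCD and between 23.5 and 37.7 CPM in ND.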

Additional observations from a re-analysis of the deposited data

How the results depend on the processing

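None of the 37 genes of the set with counts was called in any fit that held it, and the 5 with 0 counts were in no fit; of the wider genes named, C5ar2 was called by DESeq2's Wald test and A2m by edgeR without ND 2. For the 29 genes tested, 13 kept their direction in all their alternatives and 16 reversed in at least 1, in 26 of 445 fits. All but 1 of these 26 left out a library. The exception was Cr2, at -0.047 with limma-voom. With a library left out, the log2 fold changes that reversed ran -0.023 to 0.35 for C2, -0.33 to 0.49 for C4b, -0.48 to 0.29 for C6, -0.73 to 0.46 for Cd55, -0.61 to 0.73 for Cr2, -0.012 to 0.55 for F10, -0.78 to 0.25 for F13a1, -0.64 to 0.076 for F2, -0.054 to 0.65 for F7, -0.19 to 0.016 for Masp1, -0.044 to 0.62 for Plau, -0.21 to 0.011 for Pros1, -0.28 to 0.41 for Serping1, -0.039 to 0.22 for Tfpi, -0.24 to 0.70 for Thbd and -0.80 to 0.0018 for Vtn. S100a10, of the wider list, ran -0.041 to 0.069. For these 17 genes all 158 values under the other alternatives lay inside the ranges given. On log2(FPKM + 1) the fold changes of Cfi, A2m and C5ar1 were -0.78, -0.80 and -0.53.

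Over all genes, DESeq2's Wald test called 8, and leaving out libraries gave between 0 and 2 calls and between 378 and 1354 genes at an unadjusted p under 0.05, with the low value without ND 1, 525 without ND 3 and the high value without ND 2. Of the complement and coagulation genes, 4 of 29 had an unadjusted p under 0.05 by DESeq2's Wald test (Cfi, Cfp, Plat and Proc), against 4.88% of all genes. There were 5 of 37 with no filter on counts (the same and Fga), against 4.27%, and 2 of 21 on log2(FPKM + 1) and 2 of 21 on log2(FPKM + 0.1) (Plat and Proc), against 6.17%. Leaving out a library gave between 0 of 31 (without HCD 2, against 5.29% of all genes) and 7 of 30 (without ND 2, against 8.53%), with 2 of 31 without HCD 1 (4.12%) and 3 of 30 without HCD 3 (6.23%). Their median ran between -0.18 and 0.10 with a library left out. With the replicate number as a block, which the labels do not say pairs the samples, 0 genes were called, and 4 of the 29 had an unadjusted p under 0.05, against 5.07% of all genes, with a median of -0.08. Samples were also correlated after each gene's diet mean was subtracted from its log2 CPM. Such deviations offset each other within a diet, so these values do not measure how alike whole profiles are. On this measure same-numbered HCD and ND samples correlated at -0.30, 0.14 and 0.08. HCD 1, 2 and 3 correlated best with ND 2, 3 and 1. The highest skeletal muscle sums were those of HCD 1 and ND 2. The cause of these shifts was not tested. Of the 13 untested genes, 12 had at most 51 counts over the 6 libraries, and Fga had 128, of which ND 1 and ND 3 held 33 and 82.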
